A study of Drosophila melanogaster with 22 samples.

Results

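The comparison described here set 2 arrays of S2 cells treated with double-stranded RNA (dsRNA) against Cdk8 beside 8 control arrays, of which 4 had received GFP dsRNA and 4 luciferase (Luc) dsRNA. These 10 of the 22 arrays of the series were chosen by their titles, and the 12 arrays of cells treated with CycC, Med12 or Med13 dsRNA (4 each) served only to estimate the spread and for the direct comparisons at the end. S2 is a cultured line from Drosophila melanogaster embryos with properties of blood cells (haemocytes), and it takes up dsRNA from its medium and degrades transcripts of matching sequence by RNA interference. All groups were handled alike: the same number of cells received 20 µg of dsRNA in 1 ml of medium without serum, serum was brought to 10% after 1 h, and total RNA was taken at 72 h. GFP and luciferase are reporter genes that fly cells lack, so every control also carried dsRNA. Whether the arrays of one group go back to different cultures is not in the labels, so the p-values reflect spread between arrays that may be technical only. Depletion by dsRNA lowers a transcript without removing it, and the labels give no protein level for Cdk8.

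Cdk8 is a cyclin-dependent kinase that, with Cyclin C, Med12 and Med13, forms a module which docks reversibly on Mediator, the coactivator complex between transcription factors and RNA polymerase II. The module can block the contact of Mediator with the polymerase, and its kinase also phosphorylates transcription factors, among them regulators of lipid synthesis and the cell cycle. In flies the kinase has been linked to the restraint of SREBP and of E2F1, and S2 cells, being haemocyte-like, carry the immune pathways (Imd and Toll) and secrete matrix and antimicrobial proteins.

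The targeted transcript was read first. On a log2 intensity scale, Cdk8 stood at 4.64 and 4.80 on the Cdk8 dsRNA arrays, while the 8 controls ranged from 7.48 to 7.57 with a median of 7.51. Both treated arrays lay far below every control, and the transcript fell to 14.4% of the control level (log2 difference -2.79 ± 0.06 SE, adjusted p = 1.02e-18 by limma). The other module genes did not pass the test. CycC, the cyclin partner, differed by 0.05 ± 0.10, and kto, which encodes Med12, by 0.18 ± 0.08. The gene skd, which encodes Med13, differed by -0.11 ± 0.07, while its other probe set gave 0.12. Of 23 measured Mediator subunits outside the module, MED1 (0.34 ± 0.07) and MED14 (0.21 ± 0.06) rose and MED10 (-0.22 ± 0.06) fell. Over all genes tested 10.6% rose and 8.07% fell. None of these 3 calls held in both fits that left out one of the Cdk8 arrays: the adjusted p without the first array was 0.0923 for MED1, 0.321 for MED14 and 0.173 for MED10, and without the second it was 0.0633 for MED10.

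Haemocyte markers were read on the same arrays. Of 8 haemocyte markers, 7 were at or over a log2 intensity of 4 (the floor used here) in controls and in Cdk8-depleted cells, and NimC1, a phagocytic receptor, was below it in both. The summed intensity of the 8 was 17240 to 19160 in the controls and 16400 to 17730 on the Cdk8 arrays. Single markers changed in both directions within this sum: Pxn rose (log2 difference 1.15), and eater (-0.51) and Hml (-0.30) fell. The markers srp, He, Sr-CI and crq did not pass. Of 3 lamellocyte markers, msn and PPO3 were above the floor and atilla below it in both groups. Their summed intensity was 3084 to 3587 in the controls and 3358 to 3385 on the Cdk8 arrays. Of these, PPO3 fell (-0.48) and msn did not pass (0.01). Of 3 crystal cell markers, PPO1 was above the floor and lz and PPO2 below it (summed intensity 87.8 to 137.9 in the controls and 117.1 to 123.5 on the Cdk8 arrays). Fat body markers (0 of 4) and muscle markers (0 of 3) were all below the floor. One neuron marker of 4 was above it, elav, at the same level in both groups (log2 difference 0.00). Each array had between 7175 and 7214 probe sets at or over the floor, the Cdk8 arrays 7189 and 7197. On the first principal component of the 10 arrays, which held 46.5% of the variance, the Cdk8 arrays stood at 13.5 and 13.2 and the controls between -5.35 and -1.95. The second component had the first Luc array (-6.51) and the second Luc array (8.07) at its ends; leaving out either gave 1065 and 1180 changed genes in place of the 1113 described next.

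Depletion of Cdk8 changed many transcripts by small amounts and few by large ones. Of 5961 genes tested, 632 rose (10.6%) and 481 fell (8.07%), and 18.7% changed in all. The excess of rises depended on the scaling: 585 rose and 580 fell after each array was centred on its median, and 608 and 538 after quantile normalization. The median size of a change was 0.26 on the log2 scale, and 514 of the 1113 changes were under 0.25. At least 2-fold, 17 genes rose and 18 fell, and at least 1.5-fold, 53 rose and 80 fell. Both Cdk8 arrays lay beyond all 8 controls for 570 of the genes that rose (9.56% of genes tested) and 446 of those that fell (7.48%). The sign was the same on both Cdk8 arrays for 1112 of the 1113. The median difference over all genes was 0.02. Without the first Cdk8 array 538 genes passed, and without the second 623. Between the 2 kinds of control, 2 genes passed (0.0336%), and 331 had an unadjusted p under 0.05 where chance gives 298. In RNA from a whole culture, a change in the share of cells that make a transcript and a change in the amount per cell cannot be told apart.

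**Figure D1:**
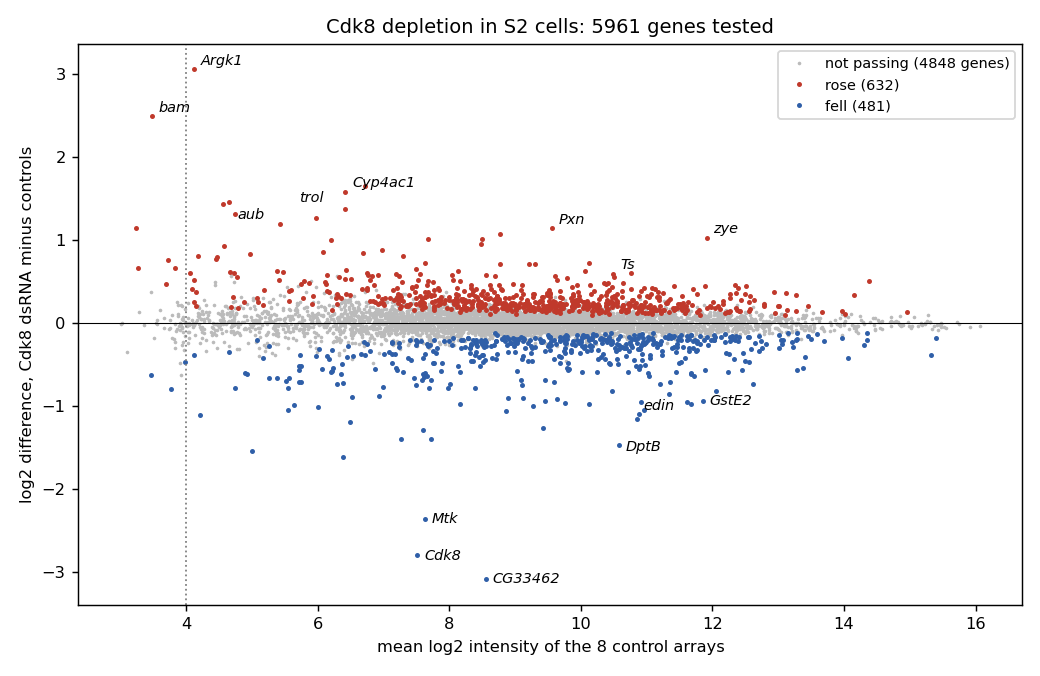
Each point is a gene, with its mean log2 intensity over the 8 control arrays on the x axis and its log2 difference, Cdk8 dsRNA minus controls, on the y axis; red points rose, blue points fell, grey points did not pass, and the dotted line marks the floor of 4. Most of the 632 rises and 481 falls lie close to 0, and Argk1 and bam at the top and CG33462, Cdk8 and Mtk at the bottom stand apart.

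The leading genes were taken from those past the threshold for which both Cdk8 arrays lay beyond all 8 controls. Among them the 2 largest rises were in Argk1 and bam. Argk1, an arginine kinase of the phosphagen system, stood at 7.18 and 7.17 on the Cdk8 arrays and at 3.67, 4.10 and 4.69 (lowest, median, highest) in the controls. Both treated arrays were about alike and lay well above every control, a rise of 8.34-fold (log2 3.06 ± 0.21 SE). Of the controls 3 were below the floor for Argk1, and with a pseudocount of 16 the difference was 2.26. For bam, a factor that drives germline stem cells into differentiation, the Cdk8 arrays read 6.01 and 5.95 and the controls 3.23, 3.46 and 3.81. No control reached the floor, so the log2 difference of 2.50 ± 0.15 rests on the background correction, and against the floor itself the rise was at least 3.95-fold. The only other germline marker of 5 above the floor was piwi, and vas, bgcn and osk were below it in both groups. The summed intensity of these 5 markers was 94.5 to 117.1 in the controls and 178.9 to 182.9 on the Cdk8 arrays. This sum contains bam, itself picked as a leading rise, and is no separate support. In addition, bam was tested only because the Cdk8 and CycC arrays reached the floor, which no other array of the series did. The other germline gene among the leaders was aub, a Piwi-class Argonaute, at 6.61 and 6.66 against 5.31, 5.44 and 5.53 (2.30-fold).

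Matrix and adhesion genes followed. Transcript of trol, the basement membrane proteoglycan perlecan, read 7.80 and 7.79 against 6.18, 6.43 and 6.58, a rise of 2.61-fold. Other kept probe sets of trol gave 1.44, 1.18 and -0.09, so the last did not share the rise. Pxn, the matrix enzyme peroxidasin and a haemocyte product, read 10.61 and 10.82 against 9.26, 9.64 and 9.92 (2.22-fold). Every Cdk8 value of these genes lay above every control, which their choice as leading genes required. Fas1, an adhesion protein of the cell surface, read 6.26 and 6.00 against 4.44, 4.66 and 4.92 (2.77-fold). Cyp4ac1, a cytochrome P450, stood at 8.00 and 8.02 and the controls between 6.34 and 6.60 (3.01-fold).

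The rest of the 15 largest rises were zye and genes known by number. The gene zye read 13.02 and 12.87 against 11.70, 11.87 and 12.22 (log2 difference 1.04 ± 0.09). CG13248, its neighbour on chromosome 3L, rose by a similar amount (1.02 ± 0.13). CG12493 rose 3.15-fold, CG10939 2.72-fold, CG15482 2.49-fold, CG4570 2.41-fold and CG8501 2.12-fold. CG9164 was below the floor on all 8 controls and only just above it on the Cdk8 arrays (4.09 and 4.70), which bounds its rise at 1.31-fold or more. It was tested only because both Cdk8 arrays reached the floor, which no other array of the series did. Its place among the rises is therefore no independent result. Just outside these 15 lay Invadolysin, a metalloprotease (1.02 ± 0.08), and M7BP (1.00 ± 0.15).

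**Figure D2:**
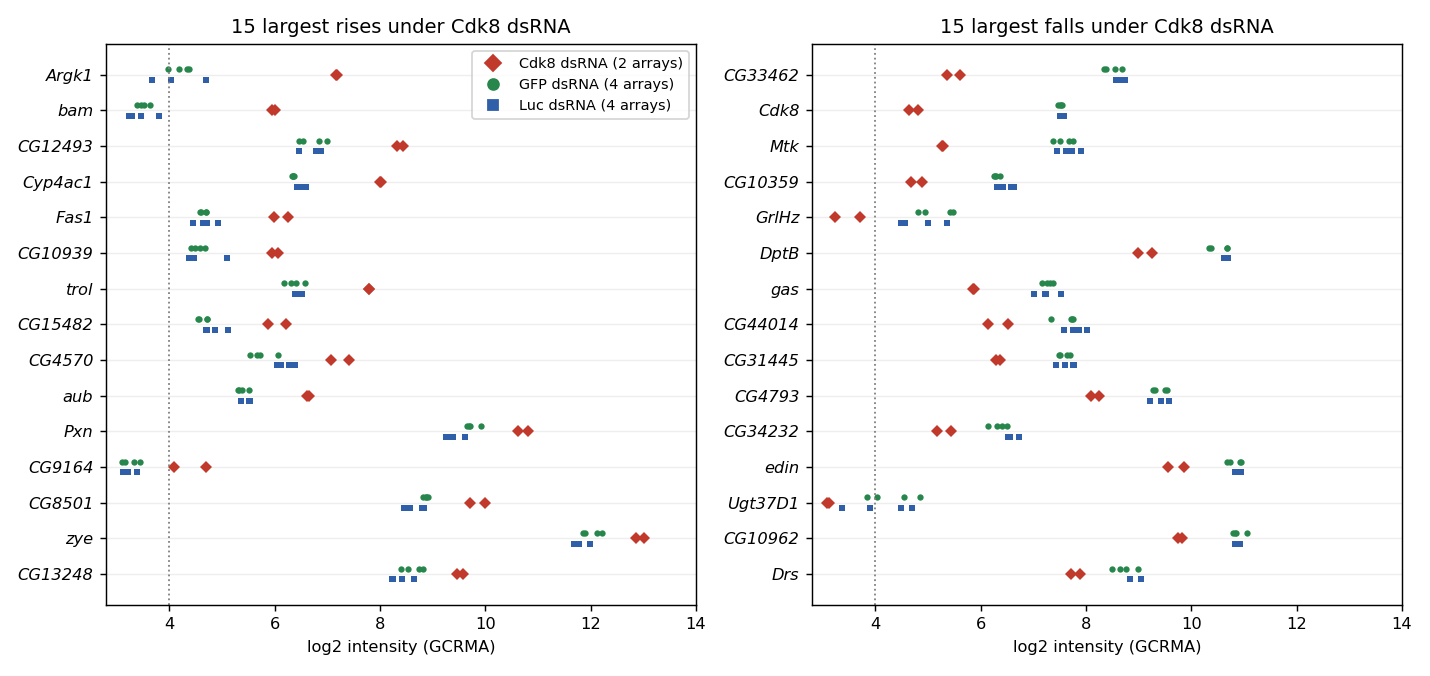
Log2 intensity on each Cdk8 array (red diamonds), GFP array (green circles) and Luc array (blue squares) for the 15 largest rises (left) and the 15 largest falls (right), with the floor of 4 as a dotted line. In every row the 2 Cdk8 arrays lie on one side of all 8 controls, which the choice of these genes required.

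The largest fall, beyond that of Cdk8 itself, was in CG33462, which stands here in the list of serine protease and clotting genes. It read 5.35 and 5.60 on the Cdk8 arrays and 8.34, 8.56 and 8.73 in the controls. The gap between the groups was several times the width of either, and the fall was 8.47-fold (log2 difference -3.08 ± 0.14). Other named genes among the 15 largest falls were Ugt37D1, a UDP-glycosyltransferase (-1.11 ± 0.24), GrlHz (-1.54 ± 0.26) and gas (-1.39 ± 0.16). Both Cdk8 arrays were below the floor for GrlHz and for Ugt37D1, and the fall of GrlHz was at least 2.01-fold. For Ugt37D1, 3 of the 8 controls were below the floor too, so no lower bound is given for its fall. Genes known by number made up most of the others: CG10359 fell 3.06-fold, CG44014 2.62-fold (its other probe set gave -0.87 on the log2 scale), CG31445 2.43-fold, CG4793 2.39-fold, CG34232 2.28-fold and CG10962 2.13-fold. CG14629 (-1.04 ± 0.08) and CG34417 (-1.04 ± 0.14) came next. All 29 leading genes besides Cdk8 stayed past the threshold in every alternative fit that tested them; the stricter filter on low values left out bam, CG10939, CG9164, GrlHz and Ugt37D1.

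Antimicrobial peptide genes fell together. All 6 measured members of the list of antimicrobial and infection-induced genes fell, where 8.07% of all genes did, and their median log2 difference was -1.10 against 0.02 over all genes. Mtk, the antifungal peptide metchnikowin, read 5.26 and 5.28 on the Cdk8 arrays and 7.38, 7.65 and 7.90 in the controls, a fall of 5.13-fold. DptB, an antibacterial diptericin, read 8.98 and 9.25 against 10.33, 10.64 and 10.69 (2.75-fold lower). None of these values overlapped between the groups, which the choice of leading genes required. The infection-induced peptide gene edin read 9.56 and 9.85 against 10.67, 10.88 and 10.95 (2.21-fold lower). Drs, the antifungal drosomycin, read 7.72 and 7.89 against 8.50, 8.91 and 9.04 (2.07-fold lower). AttD, an attacin, fell by 1.01 ± 0.13 on the log2 scale, and CecB, a cecropin, by 0.45 ± 0.06. The count stayed at 6 without either Cdk8 array.

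Upstream of these effectors the changes were smaller and went both ways. In the list of peptidoglycan recognition and Imd pathway genes, 5 of 16 fell and 1 rose, where 8.07% of all genes fell and 10.6% rose, and the median was 0.02. PGRP-LF, a membrane receptor that inhibits the pathway, read 9.16 and 9.25 against 9.56, 9.69 and 9.78 (log2 difference -0.48 ± 0.05). PGRP-LA, a related receptor gene, differed by as much (-0.47 ± 0.08). Relish, the NF-kB factor that drives diptericin genes, fell by 0.14 ± 0.04 (gene symbol Rel), and its adjusted p of 0.0303 became 0.464 without the second Cdk8 array; the call was also lost against the GFP arrays alone. The adaptor imd (-0.06 ± 0.07), the pathway gene key (0.03 ± 0.04) and the caspase Dredd (0.06 ± 0.06) did not pass. Without the first Cdk8 array 4 members fell, and without the second 2.

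Among 12 Toll pathway genes, 2 fell and 1 rose, where 8.07% and 10.6% of all genes did, and without either Cdk8 array none rose. The falls were in grass, a serine protease of the cascade (-0.58 ± 0.07), and GNBP3, which recognises fungal glucans (-0.52 ± 0.08). The cytokine spz (0.03 ± 0.05), the inhibitor cact (0.06 ± 0.04) and the NF-kB factor dl (-0.03 ± 0.09) did not pass. Of 9 clotting, melanisation and protease genes, 6 fell and none rose, with a median of -0.42. Beside CG33462 these included Sp7, a protease that activates melanisation (-0.49 ± 0.06), the prophenoloxidase PPO3 (-0.48 ± 0.07) and the serpin Spn77Ba (-0.42 ± 0.09). They also included Spn27A, a serpin that holds melanisation back (-0.15 ± 0.05), and the clotting gene fon (-0.26 ± 0.07). That count was 5 without the first array and 4 without the second.

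Phagocytic receptor genes were lower where they passed. Of 10 haemocyte surface and phagocytic receptor genes, 5 fell and none rose (median -0.23), where 8.07% of all genes fell. The engulfment receptor drpr read 11.08 and 11.05 against 11.59, 11.67 and 11.76, a fall of 1.52-fold. The bacteria-binding receptor eater read 10.22 and 10.42 against 10.75, 10.82 and 10.92 (1.43-fold lower). Both groups were tight and did not overlap. The clotting protein gene Hml fell by 0.30 ± 0.05. The CD36-related receptor crq (-0.10 ± 0.12) and the scavenger receptor Sr-CI (0.07 ± 0.11) did not pass. Without the first Cdk8 array 4 genes fell, and without the second 3. Of 5 blood cell transcription factors, ush, a cofactor of GATA factors, rose (0.28 ± 0.07, adjusted p = 0.14 without the first Cdk8 array), while its partner srp was at 0.04 ± 0.11.

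Genes of DNA replication rose as a group. In the list of origin licensing and helicase genes, 12 of 17 rose and none fell, and in the list of replication fork and nucleotide supply genes, 19 of 20 rose and none fell, where 10.6% of all genes rose. The medians were 0.35 and 0.31 on the log2 scale against 0.02 over all genes. The changes were modest next to those of the leading genes, from 0.16 to 0.60 where they passed. Without the first Cdk8 array 11 and 14 passed, and without the second 12 and 14.

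The licensing factors behaved alike. Transcript of dup, the Cdt1 that loads the helicase, read 11.14 and 11.09 on the Cdk8 arrays against 10.56, 10.64 and 10.70 in the controls, a rise of 1.40-fold. Mcm6, a helicase subunit, read 12.28 and 12.38 against 11.81, 11.88 and 11.96 (1.37-fold), and Mcm2 read 11.38 and 11.37 against 10.86, 10.95 and 11.07 (1.34-fold). In each case both treated arrays lay above every control. All 5 measured MCM subunits rose, within a narrow range of 0.40 to 0.47 on the log2 scale. Of the origin recognition complex, 3 of 4 measured subunits rose (Orc1 0.46 ± 0.06, Orc2 0.35 ± 0.08, Orc4 0.35 ± 0.06), and Orc5 was at 0.12 ± 0.05. The loading and firing factors Cdc6 (0.39 ± 0.07), Mcm10 (0.35 ± 0.06) and Cdc45 (0.33 ± 0.07) rose. The GINS complex, which joins the helicase at firing, did not: none of its 4 subunits passed, and they lay between -0.03 and 0.18. This grouping by complex was made after the values were seen.

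At the fork the largest change was in nucleotide supply. Ts, thymidylate synthase, read 11.05 and 11.14 against 10.41, 10.49 and 10.58, a rise of 1.51-fold. RnrL, the large subunit of ribonucleotide reductase, read 12.79 and 12.84 against 12.29, 12.40 and 12.43 (1.34-fold). Neither overlapped the controls. The sliding clamp PCNA read 12.90 and 12.82 against 12.45, 12.50 and 12.56 (1.28-fold). All 8 clamp, clamp loader and single-strand binding genes rose, between 0.16 and 0.40. Of 7 polymerase and primase subunits 6 rose, led by PolA1 (0.46 ± 0.07) and Prim2 (0.42 ± 0.08), and PolD2, a subunit of polymerase delta, was at 0.06 ± 0.04.

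**Figure D3:**
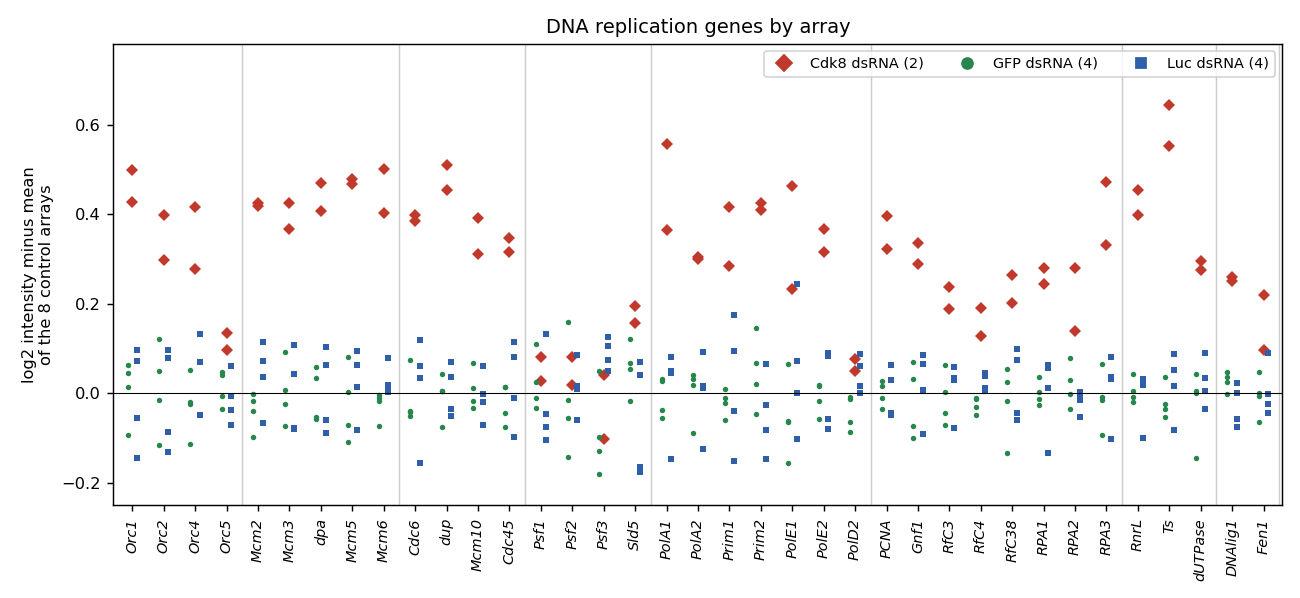
Log2 intensity minus the mean of the 8 controls on each array for the measured replication genes, in blocks from the origin recognition complex on the left to nick and flap processing on the right; red diamonds are Cdk8 arrays, green circles GFP and blue squares Luc. The Cdk8 arrays lie above the controls in most blocks, and those of the 4 GINS genes (Psf1, Psf2, Psf3, Sld5) and of PolD2 lie among or near them.

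The rise extended to part of the cell cycle list. Of 20 kinases, cyclins and checkpoint genes, 9 rose and none fell (median 0.14), where 10.6% of all genes rose. CycE, the cyclin of S phase entry, rose by 0.58 ± 0.12, its kinase Cdk2 by 0.35 ± 0.06, and the checkpoint kinase grp by 0.28 ± 0.05. The mitotic cyclin CycB read 12.20 and 12.03 against 11.58, 11.70 and 11.81 (1.33-fold), and CycB3 read 9.95 and 9.88 against 9.44, 9.50 and 9.63 (1.32-fold). Neither mitotic cyclin overlapped the controls. The G1 partners CycD (0.07 ± 0.06) and Cdk4 (-0.06 ± 0.05) did not pass, and neither did Bub1, a spindle checkpoint kinase (-0.05 ± 0.07). Without the first array 8 rose, and without the second 6.

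Of 9 genes of E2F and the Myb-MuvB complex, 3 rose: Dp, the partner of E2F factors (0.19 ± 0.04), Rbf, the retinoblastoma protein that restrains them (0.33 ± 0.08), and the histone-binding Caf1-55 (0.28 ± 0.04). Without the second Cdk8 array Dp (adjusted p = 0.0829) and Rbf (0.0669) did not pass. E2f2, the repressive E2F, was at -0.12 ± 0.05 and did not pass. Of 16 chromatin assembly and cohesin genes 10 rose and none fell (median 0.20), where 10.6% of all genes rose. The histone chaperone asf1 (0.38 ± 0.05) and Caf1-180, a subunit of the assembly factor CAF-1 (0.36 ± 0.07), led them, with SMC3 of cohesin (0.33 ± 0.06) and the centromeric histone cid (0.29 ± 0.08). That count was 3 without the first Cdk8 array and 6 without the second.

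In the nuclear pore, Polycomb, germline and RNA interference lists the genes that passed were all higher, where 10.6% of all genes rose, and most members of each list did not pass. Of 30 nuclear pore and transport genes 12 rose and none fell (median 0.15), led in p by the scaffold genes Nup205 (0.28 ± 0.05) and Nup188 (0.25 ± 0.05), and the export receptor Cse1 (0.19 ± 0.04). Of 22 Polycomb and Trithorax genes 7 rose and none fell (median 0.14), among them Sfmbt (0.32 ± 0.06). The nuclear pore count was 4 without either Cdk8 array, and the Polycomb count was 1 without the first and 5 without the second. Of 15 germline genes 6 rose (median 0.17), and of 17 genes of RNA interference 5 rose (median 0.13). The germline calls include bam and aub, already named as leading rises, and bam was tested only through arrays where it is high. The others were ovo, a transcription factor (0.46 ± 0.11), piwi (0.36 ± 0.12), tud (0.35 ± 0.10) and mael (0.17 ± 0.06). The germline count was 2 without the first array and 3 without the second, and the RNA interference count was 3 without either. Dcr-2, the enzyme that cuts the added dsRNA, was at -0.02 ± 0.05.

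The matrix list split by gene. Of 15 basement membrane and matrix genes 5 rose and 2 fell, where 10.6% and 8.07% of all genes did. Beside trol and Pxn, LanB2, the laminin gamma chain, rose by 0.34 ± 0.05, Plod, a collagen-modifying enzyme, by 0.34 ± 0.06, and the glypican dlp by 0.62 ± 0.19. Glt, glutactin, fell by 0.36 ± 0.06, and the collagen-binding SPARC by 0.20 ± 0.05. The collagen IV chains vkg (0.10 ± 0.04) and Col4a1 (0.11 ± 0.06) and the laminins LanA (0.08 ± 0.05) and LanB1 (0.06 ± 0.04) did not pass. Without the first array 4 rose and 1 fell, and without the second 5 and 1. In the adhesion list the cadherin kug rose by 0.20 ± 0.06, a call lost in 11 of 20 alternative fits. Median centring and quantile normalization were among those fits. With Fas1 and the integrin alpha chain mew (0.60 ± 0.16, other probe set 0.01), 3 of 13 genes of the list rose. That count was 1 without either Cdk8 array, and mew did not pass without the first (adjusted p = 0.13) or without the second (0.076). Of 19 actin genes 2 rose and 4 fell, where 10.6% and 8.07% of all genes did. These counts were 1 and 1 without the first array and 1 and 3 without the second. The bundling protein sn, fascin, read 9.42 and 9.46 against 8.25, 8.47 and 8.66, a rise of 1.94-fold with no overlap. The actin polymerisation factor ena fell by 0.37 ± 0.08.

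Glutathione transferase and cytochrome P450 genes that passed were mostly lower. Of 26 glutathione transferase genes 10 fell and 2 rose (median -0.13). GstE2 read 10.97 and 10.88 on the Cdk8 arrays while the controls started at 11.80 and had a median of 11.83, a fall of 1.91-fold, and its neighbour GstE3 read 10.70 and 10.60 against 10.94, 11.41 and 11.54 (1.63-fold lower). Both genes were lower on each treated array than on any control. GstE13 and GstD5 rose (0.32 ± 0.08 and 0.32 ± 0.09). Without the first array 8 fell and none rose, and without the second 6 fell and none rose. Of 22 cytochrome P450 genes 8 fell and Cyp4ac1 alone rose (median -0.16), with Cyp4e2 at the largest fall (-0.68 ± 0.09). Of 17 oxidative stress and iron genes 1 fell and 1 rose, no more than the 8.07% and 10.6% of all genes. MtnA, a metallothionein that binds copper, fell by 0.38 ± 0.08 (adjusted p = 0.0823 without the second array), and Gs1, a glutamine synthetase, rose by 0.44 ± 0.07. In the fit without the first array 2 fell and 2 rose.

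Another enzyme family fell in part: 5 of 7 neprilysin-like peptidase genes were lower and none higher (median -0.42), where 8.07% of all genes fell. Nepl19 read 10.69 and 10.70 against 11.52, 11.68 and 11.76 (1.96-fold lower), and Nepl20 read 11.87 and 11.90 against 12.51, 12.57 and 12.82 (1.65-fold lower). They lie side by side on chromosome 3R with Nepl21, which fell less (-0.30 ± 0.06). Without the first Cdk8 array 3 passed, and without the second 5.

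Sugar and lipid lists showed single genes. Of 24 genes of glycolysis, trehalose and phosphagen use 3 rose and 5 fell (median 0.01), where 10.6% and 8.07% of all genes did, and Argk1 was the leading rise. Treh, trehalase, read 7.27 and 7.34 against 7.66, 7.89 and 8.05 (1.48-fold lower), and Pepck1, an enzyme of gluconeogenesis, fell by 0.48 ± 0.10. The glycogen phosphorylase gene Glyp (-0.24) passed only with both Cdk8 arrays (adjusted p = 0.132 without the first and 0.0829 without the second). Without the first array 1 gene of the list rose and 2 fell, and without the second 2 rose and 2 fell. Of 23 genes of SREBP and fatty acid synthesis, a pathway in which Cdk8 has a known part, 4 rose and 3 fell (median -0.01), where 10.6% and 8.07% of all genes did. SREBP itself (0.03 ± 0.07), FASN1, fatty acid synthase (-0.02 ± 0.06), ACC (0.09 ± 0.09) and Desat1 (-0.06 ± 0.09) did not pass. The rises were in phospholipid and escort genes: bbc (0.38 ± 0.06), eas (0.33 ± 0.06), Agpat2 (0.29 ± 0.05) and SCAP (0.23 ± 0.05). The sterol carrier Npc2a fell by 0.28 ± 0.05, and without the first and the second array 1 and 2 genes of the list fell. Of 13 genes of lipid storage and beta-oxidation 1 rose and 1 fell, below the 10.6% and 8.07% of all genes. These were Lsd-1, a lipid droplet protein gene (0.41 ± 0.06), and whd, a carnitine palmitoyltransferase (-0.28 ± 0.09), and without either Cdk8 array 1 rose and none fell.

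Signal genes changed one at a time. Of 18 genes listed under Pvr, EGFR and ERK signalling 3 rose and 4 fell, where 10.6% and 8.07% of all genes did. Among the rises, dnk (0.46 ± 0.04) is a deoxyribonucleoside kinase and no signalling gene. Pvf1, a ligand of the receptor Pvr, read 11.31 and 11.43 against 10.67, 10.72 and 10.87 (1.53-fold higher). The receptor Pvr rose by 0.15 ± 0.04. Those that fell were aos, an EGFR antagonist (-0.58 ± 0.09), aop, a repressor under ERK control (-0.30 ± 0.05), the phosphatase Mkp3 (-0.28 ± 0.07) and the FGF bnl (-0.66 ± 0.18). Other genes known as ERK targets did not pass: sty was at 0.25 ± 0.12 and kek1 at 0.01 ± 0.17. Without the first array 2 rose and 2 fell, and without the second 3 and 3.

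In the Notch list 1 of 10 rose and 1 fell, where 10.6% and 8.07% of all genes did. The call that fell was numb, an inhibitor of the receptor (-0.98 ± 0.17, adjusted p = 0.0528 without the second array), and the one that rose was neur, a ubiquitin ligase for the ligand Delta (0.33 ± 0.08, adjusted p = 0.0932 without the second array). In the Hippo and TGF-beta list 4 of 17 rose and 1 fell: daw, an activin-like ligand, fell by 0.74 ± 0.14 (adjusted p = 0.0741 without the second array) and put, its receptor, rose by 0.33 ± 0.06. Without the first array 1 gene of this list rose. Ac76E, an adenylyl cyclase, read 9.43 and 9.54 against 8.68, 8.78 and 8.89 (1.64-fold higher), the single call among 11 cAMP genes. Dark, the scaffold of the apoptosome, rose by 0.40 ± 0.06, the single call among 9 apoptosis genes, and its other probe set gave 0.12.

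In 3 further pathways 1 gene each passed, and none of these calls held without the second Cdk8 array. They were puc, a phosphatase that restrains JNK (-0.26 ± 0.06, 1 of 13), Socs44A of the JAK/STAT list (0.24, 1 of 9) and dco, a casein kinase of the Wnt list (0.21, 1 of 8). Of 11 heat shock and chaperone genes Hsp27 rose (0.33 ± 0.07). Over all genes tested 10.6% rose and 8.07% fell, and counts of 1 in each of these lists lie near such shares.

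Housekeeping lists gave few calls, where 10.6% of all genes rose and 8.07% fell. None of 27 proteasome genes changed, and their median was 0.00. Of 31 cytosolic ribosomal protein genes 1 rose, RpS19b, a duplicate gene with restricted expression (8.33 and 8.37 against 7.34, 7.63 and 7.76, 1.65-fold). Of 69 mitochondrial ribosomal protein genes 1 rose and 1 fell, and of 54 respiratory chain genes 1 fell. The mitochondrial ribosomal genes were mRpS5, which fell (-0.20 ± 0.04), and mRpS25, which rose (0.25 ± 0.05) but did not pass without the first Cdk8 array. The latter is also one of the 2 genes that differed between GFP and Luc controls (-0.47 ± 0.05, GFP lower). Under Cdk8 dsRNA mRpS25 stood at 0.48 ± 0.06 from the GFP arrays but at only 0.01 ± 0.06 from the Luc arrays. None of 14 ecdysone response genes passed, among them the receptor EcR (-0.11 ± 0.13). The other transcription kinases Cdk7 (-0.12 ± 0.07), Cdk9 (0.04 ± 0.05) and Cdk12 (-0.04 ± 0.06) did not pass either. Of the 11 genes in that list 1 rose, the kinase Doa (0.22 ± 0.06), whose other probe set gave -0.39 and whose adjusted p was 0.476 without the first Cdk8 array.

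**Figure D4:**
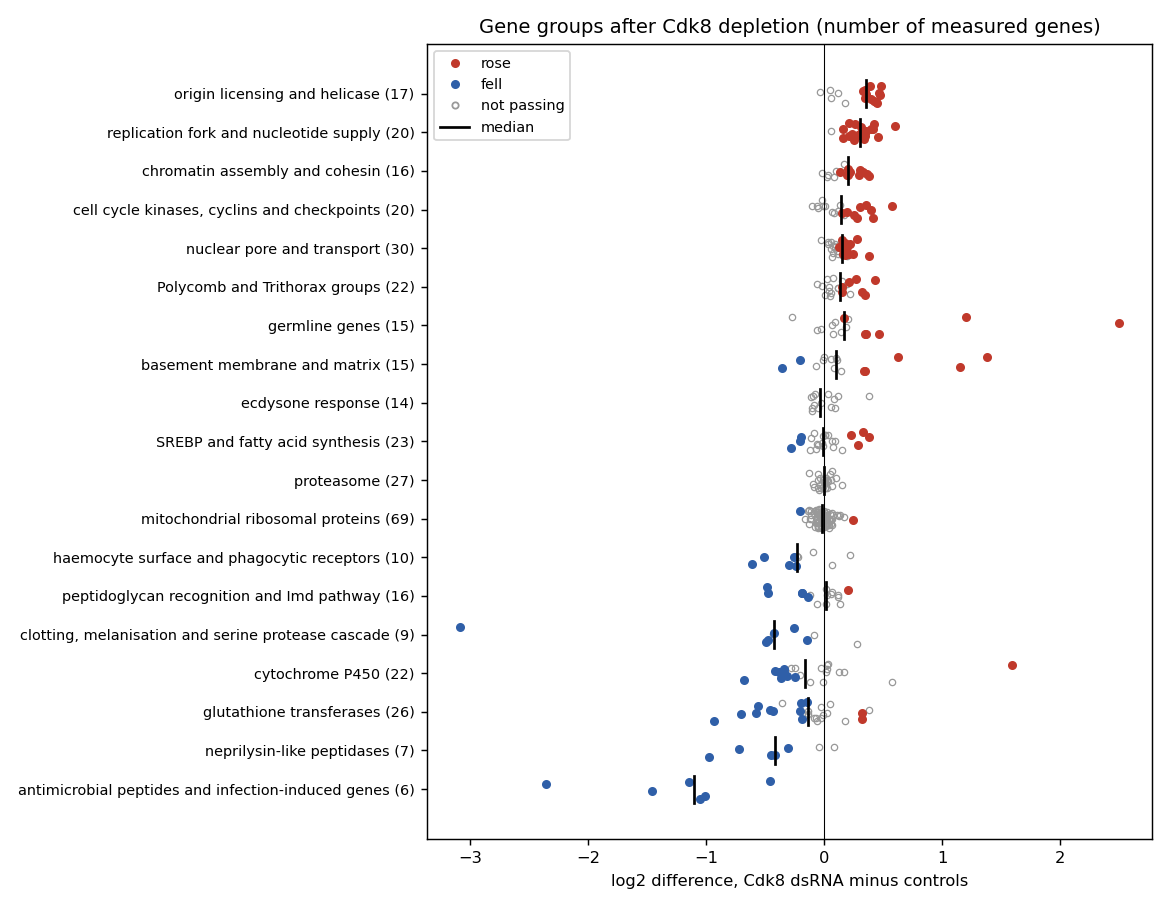
Log2 difference, Cdk8 dsRNA minus controls, for each measured gene of 19 lists (number of genes in brackets); red points rose, blue points fell, open points did not pass, and the black bar is the list's median. The replication lists sit to the right (medians 0.35 and 0.31), the antimicrobial list to the left (median -1.10), and proteasome and mitochondrial ribosomal genes lie around 0.

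The kinase was next set directly against its cyclin, with the controls left out of the difference. Of 5961 genes 6 differed between Cdk8 and CycC depletion (0.101%), and 290 had an unadjusted p under 0.05 where chance gives 298. Both targets were among the 6: CycC was higher under Cdk8 dsRNA by 4.86 ± 0.11 and Cdk8 lower by 2.73 ± 0.06. CG10359 was lower (-0.55 ± 0.09), having fallen by 1.61 under Cdk8 and by 1.06 under CycC dsRNA, and CG9164 was higher (0.85 ± 0.16). All 4 CycC arrays were below the floor for CG9164, and against the floor its level under Cdk8 dsRNA was at least 1.31-fold higher. This gene was tested only through the Cdk8 arrays, where it is high. The translation elongation factor subunit eEF1gamma was higher by 0.47 ± 0.04, at 0.02 from the controls under Cdk8 and -0.45 under CycC dsRNA. The cAMP phosphodiesterase dnc was higher by 0.65 ± 0.13. The count was 3 without the first CycC array and 3 without the second, and a p that misses the threshold does not show that the depletions act alike.

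Treatment with Med12 or Med13 dsRNA was compared with Cdk8 dsRNA in the same way. The target kto stood at -3.32 ± 0.06 from controls under Med12 dsRNA, but the target skd at only -0.31 ± 0.05 under Med13 dsRNA. These values hold for the brightest probe set of each gene, and skd has another. The profiles differed from that of Cdk8 depletion in many genes: 1980 genes against Med12 (33.2%) and 1612 against Med13 (27%). Those counts were 1280 and 953 without the first Cdk8 array and 1348 and 1047 without the second. Of the 15 leading rises 12 differed from Med12 and 14 from Med13, and of the 15 falls 10 and 12. These genes were selected on the Cdk8 arrays that the direct comparisons reuse. Against the controls, 5 of the rises also rose under Med12 and 5 under Med13 dsRNA, while 4 and 3 fell. Of the falls, 11 also fell under Med12 and 7 under Med13 dsRNA, while 2 and 3 rose. Some direct differences were of size only: CG31445 was at -1.28 ± 0.11 under Cdk8, -2.50 ± 0.09 under Med12 and -2.54 ± 0.09 under Med13. Some genes went opposite ways. Pxn was at 1.15 ± 0.09 from controls under Cdk8, at -0.92 ± 0.07 under Med12 and at -1.25 ± 0.07 under Med13 dsRNA. The directly compared difference was 2.08 ± 0.10 from Med12 and 2.40 ± 0.10 from Med13. For sn the values were 0.95 ± 0.20, -2.89 ± 0.15 and -2.21 ± 0.15 in the same order.

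The largest direct difference from both Med12 and Med13 was in TwdlE, a cuticle protein gene, higher under Cdk8 than Med12 dsRNA by 4.42 ± 0.19 and than Med13 dsRNA by 4.74 ± 0.19. It read 8.09 and 8.13 on the Cdk8 arrays and 6.72, 7.35 and 7.74 in the controls, a rise of 1.75-fold, and had means of 3.70 under Med12 and 3.37 under Med13, below the floor on all arrays, so it was at least 17.3-fold higher against the floor. In the other direction CG33462 was lower by 3.17 ± 0.16 than under Med12 dsRNA, where it stood at 0.09 ± 0.11 from controls. The innexin ogre was lower by 2.38 ± 0.17 and CG5001 by 2.28 ± 0.20, the latter with 1 of the 2 Cdk8 arrays below the floor. Among immune genes, GNBP3 was at -0.52 ± 0.08 under Cdk8, 0.58 ± 0.06 under Med12 and 0.51 ± 0.06 under Med13, and Sp7 at -0.49 ± 0.06, 0.69 ± 0.05 and 0.68 ± 0.05. GstE2 was at -0.93 ± 0.05, 0.55 ± 0.04 and 0.68 ± 0.04.

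Replication genes stood higher under Cdk8 depletion than under either of the large subunits. Of the 17 licensing genes 12 were higher than under Med12 and 10 than under Med13, and none lower, where 15.7% and 12.7% of all genes were higher. Of the 20 fork genes 13 and 11 were higher and none lower. Against the controls themselves, 6 of the 17 licensing genes rose under Med12 and 9 under Med13, and 5 and 9 of the 20 fork genes, with none lower, where 26.5% and 21% of all genes rose. Under CycC dsRNA the median differences of the licensing and fork genes from controls were 0.35 and 0.28, near the 0.35 and 0.31 under Cdk8 dsRNA. For dup the difference from controls was 0.48 ± 0.05 under Cdk8, -0.01 ± 0.04 under Med12 and 0.07 ± 0.04 under Med13. DptB was at -1.46 ± 0.11 under Cdk8, -1.48 ± 0.08 under CycC, 0.29 ± 0.08 under Med12 and 0.25 ± 0.08 under Med13. Mtk was low in all, at -2.36 ± 0.24, -2.42 ± 0.19, -2.62 ± 0.19 and -3.25 ± 0.19 in the same order. Of the 6 measured antimicrobial and infection-induced genes, 6 fell under CycC (median -0.98), 5 under Med12 (-0.50) and 4 under Med13 dsRNA (-0.61). In that list 1 gene rose under Med12 and 1 under Med13 dsRNA. These values against controls share their 8 control arrays.

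**Figure D5:**
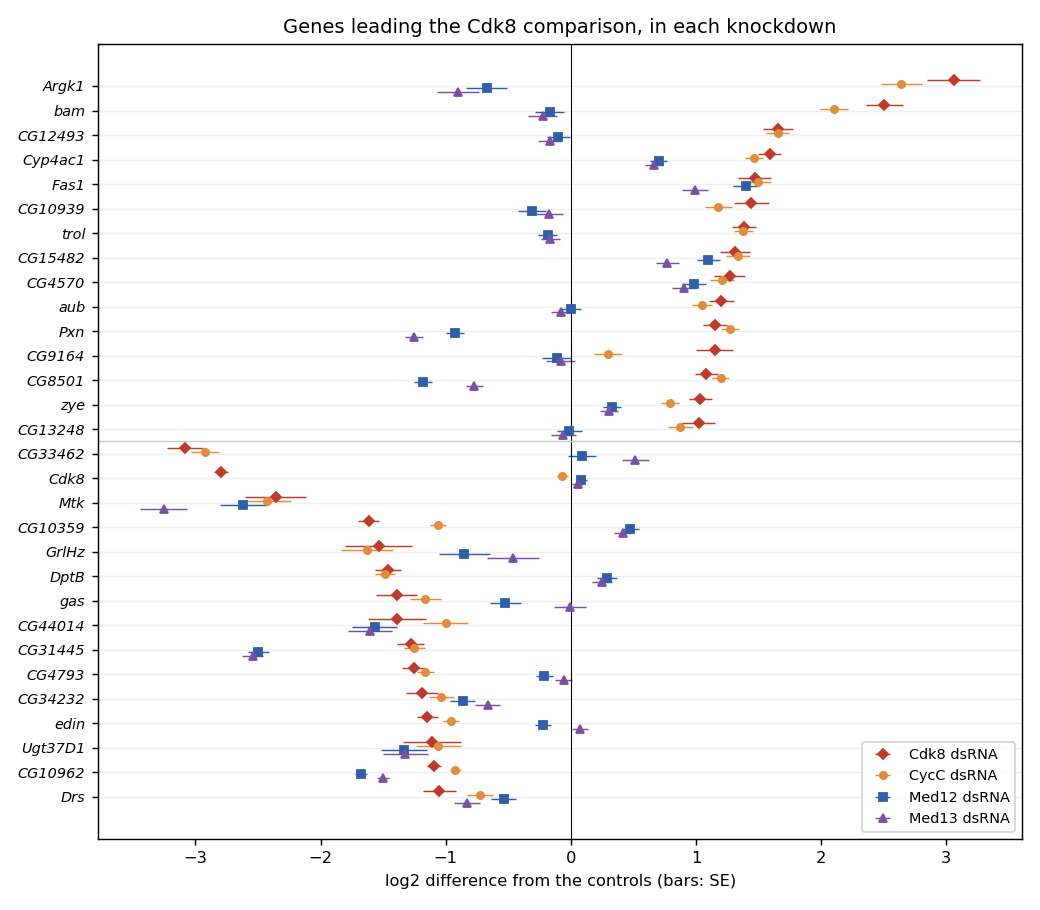
Log2 difference from the shared 8 controls, with SE bars, for the genes leading the Cdk8 comparison, under Cdk8 (red diamonds), CycC (orange circles), Med12 (blue squares) and Med13 dsRNA (purple triangles). CycC values lie near those of Cdk8 in most rows, and Pxn and CG8501 are high under Cdk8 and CycC and low under Med12 and Med13.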

How the data were processed

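Messenger RNA was measured on 22 Affymetrix Drosophila arrays. The authors deposited 1 intensity per probe set and array, on a linear scale (2.02 to 70939), made with GCRMA, per the submitters' processing notes. GCRMA corrects background from base composition and normalizes arrays to one another, which shrinks weak signals and hides any uniform change. Its version and settings are not given in the sources used here, and the values hold no detection calls. The number of arrays limits the precision.

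Of 18952 probe sets, 183 controls were left out. In the platform annotation 13647 had a single gene symbol, 402 several and 4720 none. Probe sets with a log2 value of 4 or more (an intensity of 16) on at least 2 arrays were kept, and the brightest with a single symbol stood for each of 5961 genes. A table of RefSeq genes served for names and for gene order only, so no coordinates are given. No sequence is shown because none was used here.

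Log2 intensities of the 22 arrays entered one limma fit (lmFit and eBayes of version 3.58.1, R 4.3.3) with a coefficient per group and 16 residual degrees of freedom, after a test on simulated data. The contrast took Cdk8 minus the average of both control group means. Tests were two-sided, with Benjamini-Hochberg adjustment over 5961 genes and a threshold of 0.05, and only genes past it are described as risen, fallen or changed. The lowest correlation of arrays within a group was 0.996. The median moderated SD was 0.0793 (log2). Groups came from the titles.

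The text names the 15 largest rises and falls without overlap of groups and the module genes. It draws on up to 4 members with the smallest p of each list and on the 5 largest direct differences each way. Not all of these members and differences are given. Other members of the lists were named after their values were seen. Members and lists were chosen with earlier results of these data known, and no set test was made. Alternatives covered scaling, the filter, a pseudocount of 16, the samples fitted, the variance trend, a replicate block, each control alone and each array left out.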

Additional observations from a re-analysis of the deposited data

Results flagged for a closer look

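In groups of 4 arrays, 1 array stood apart from the other 3 by more than Dixon's 95% limit in 22 of 347 cases, where chance gives about 1 in 20, or 17. The first Luc array accounted for 7 of the 22. It was high for CG10939 (5.09, others 4.37 to 4.47) and low for aub (5.36, others 5.51 to 5.53), RnrL (12.29, others 12.41 to 12.42), grp (11.11, others 11.19 to 11.20), Caf1-55 (12.59, others 12.65 to 12.66), Lsd-1 (7.67, others 7.88 to 7.91) and PolA1 (8.47, others 8.66 to 8.70). All of these are log2 intensities.

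Other control arrays stood apart in single genes. The second GFP array was at 11.25 for grp (others 11.16 to 11.18), 10.75 for ush (others 10.86 to 10.87) and 8.70 for kto (others 8.68 to 8.69). The third was at 7.34 for CG44014 (others 7.71 to 7.75), 11.47 for Cse1 (others 11.43) and 5.14 for CG5001 (others 4.56 to 4.64). The fourth was at 7.80 for Pepck1 (others 7.72 to 7.74), 8.66 for sn (others 8.45 to 8.48) and 7.56 for Gs1 (others 7.43 to 7.45). The first was at 9.61 for Glyp (others 9.79 to 9.82).

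The third Luc array was at 14.87 for eEF1gamma (others 14.80 to 14.81), and the fourth at 8.84 for Drs (others 9.04) and 11.05 for mRpS5 (others 10.98). The third CycC array was at 4.83 for CycC (others 4.22 to 4.25), and the third Med12 array at 7.67 for CG30148 (others 8.03 to 8.08).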

How the results depend on the processing

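The count of 1113 changed genes was 538 without the first Cdk8 array, 623 without the second and 1180 at most when any control array was left out, and lay between 881 and 1170 under the other alternatives without the block. A fit without a Cdk8 array left a single array in that group, which was assumed to vary like the others. Why the counts were lower in those fits was not tested. Against Med12 the counts with 1 array left out ran from 1280 to 1930 and against Med13 from 953 to 1593. The 6 genes between Cdk8 and CycC were 3 when only the groups compared were fitted and 3 to 8 with 1 array left out. The 2 genes between GFP and Luc were 4 after median centring, 4 after quantile normalization and 2 to 10 with 1 array left out (10 without the fourth Luc array). The cause was not tested. With the replicate number as a block, 1270 genes passed in the Cdk8 comparison (777 higher, 493 lower), 9 against CycC and 5 between the controls. Deviations of the Cdk8 arrays from their group mean correlated with those of same-numbered arrays by -0.24 to 0.06, and GFP with Luc by -0.03 to 0.29, so the numbers were not taken to pair the samples compared. Among the other groups numbers did go together in part: GFP with Med13 correlated by 0.10 to 0.28 in all 4 pairs, and Luc with CycC by up to 0.44. Cdk8 itself stayed between -2.88 and -2.23, the last with a pseudocount of 16. Besides the leading genes, 104 called genes were followed through the alternatives. They leave out some called genes named above and include some not named. Of the 104, 15 were lost in at least 1 fit that kept both Cdk8 arrays, and others only where a Cdk8 array was left out. No gene followed in this way reversed its sign. Signals near the floor limit what fold changes of weak genes can show.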
